A study of Homo sapiens with 6 samples.

Results

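The 48 genes described here are known androgen-induced genes of signalling, transport, transcription, metabolism and the cytoskeleton, chosen by gene symbol from a hand-written list. They are 48 of the 21512 gene symbols in the deposited table, and all 48 passed the filter on low counts (an average of 20 or more counts across the 6 libraries), as 13885 genes did in all. RNA sequencing covered 2 established prostate cancer cell lines, 1 library for each line and treatment. BicR, which the labels call prostate cancer without saying how it was derived, and LNCaP, an androgen-responsive line, were each given 10 nM dihydrotestosterone (DHT, an androgen), 1 µM bicalutamide (an antiandrogen) or ethanol vehicle for 24 h. All 6 cultures had first spent 3 days in phenol red-free medium with 2.5% charcoal-stripped serum, which is poor in steroid hormones, so the ethanol and bicalutamide libraries are both free of added androgen. Total counts per library lay between 42162723 and 55917016.

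Androgens such as testosterone and DHT switch on a programme of genes in luminal prostate cells, in part through DNA response elements built from a pair of hexamers. The genes of this programme reach well beyond the kallikreins, into kinases and phosphatases, membrane transporters, enzymes of lipid and sugar metabolism, and transcription factors that carry the response further. Bicalutamide blocks the action of androgens and, in androgen-responsive cells, keeps these genes from being activated.

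The treatment was checked on KLK3, a gene known to respond to androgen. KLK3, which encodes prostate-specific antigen, stood at 2600 CPM (counts scaled to library size) with DHT, 630 with bicalutamide and 672 with ethanol in BicR, and at 5257 with DHT, 979 with bicalutamide and 1402 with ethanol in LNCaP. All 10 luminal prostate markers were detected in every library. The 6 basal markers summed to 0.499 to 1.3 CPM with DSG3 at 0 in every library, the 6 neuroendocrine markers to 2.18 to 3.68 CPM, and the 5 immune markers to 0.34 to 0.906 CPM with PTPRC at 0 in every library. The 8 mesenchymal markers summed to 61.1 to 88.8 CPM, with VIM the highest and COL1A2 at 0 in every library, and the 4 endothelial markers to 10.8 CPM with DHT and 3.03 to 3.09 CPM without it in BicR, and to 8.4 CPM with DHT and 5.29 to 5.98 CPM without it in LNCaP, with VWF the highest and CDH5 at 0 in every library. The LNCaP ethanol library stood apart with the stress chaperone HSPA5 at 8595 CPM, against 1245 to 1645 CPM in the other 5 libraries. The LNCaP bicalutamide library went against its line label in overall profile. Its correlation of log2 CPM across genes was 0.9860 with BicR bicalutamide and 0.9861 with BicR ethanol, against 0.9807 with LNCaP DHT and 0.9813 with LNCaP ethanol, and LNCaP ethanol reached 0.9688 with BicR ethanol. Differences within LNCaP and between the lines rest on these libraries. The 2-fold counts over all members, and most single genes, are therefore given below with ethanol and with bicalutamide. The medians within a line, the count of larger differences in BicR, the role group counts and the ratio intervals are against ethanol only. In bulk libraries like these, fewer cells of a type and less RNA per cell cannot be told apart.

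Promoters of 3 of the genes that rose with DHT over both lines are shown first, because they let the androgen response be read beside the DNA at the start sites. The hexamers of the androgen response element, AGAACA and TGTTCT (each is the other read on the opposite strand), were searched on both strands in RefSeq promoter windows, which run from 250 bases before to 50 bases after an annotated start on build GRCh38.p14, whereas the counts were made on hg19. The windows below give the 250 bases before the start, 5′ to 3′ on the strand of the gene, with a hexamer in capitals. HPGD lies at chr4:174522489-174522738 on the minus strand (the downstream of its 2 listed starts), CENPN at chr16:81006964-81007213 on the plus strand, and PMEPA1 at chr20:57710578-57710827 on the minus strand (1 of its 4 listed starts).
HPGD: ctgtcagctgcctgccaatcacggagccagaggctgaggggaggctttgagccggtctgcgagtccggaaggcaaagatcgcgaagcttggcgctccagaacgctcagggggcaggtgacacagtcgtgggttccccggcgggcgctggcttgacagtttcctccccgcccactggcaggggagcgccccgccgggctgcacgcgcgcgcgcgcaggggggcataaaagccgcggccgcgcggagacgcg
CENPN: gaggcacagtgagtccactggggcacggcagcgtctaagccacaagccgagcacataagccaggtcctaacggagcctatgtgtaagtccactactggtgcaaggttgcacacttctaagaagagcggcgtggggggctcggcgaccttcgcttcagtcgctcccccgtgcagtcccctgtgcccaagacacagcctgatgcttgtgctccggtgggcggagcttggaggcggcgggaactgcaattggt
PMEPA1: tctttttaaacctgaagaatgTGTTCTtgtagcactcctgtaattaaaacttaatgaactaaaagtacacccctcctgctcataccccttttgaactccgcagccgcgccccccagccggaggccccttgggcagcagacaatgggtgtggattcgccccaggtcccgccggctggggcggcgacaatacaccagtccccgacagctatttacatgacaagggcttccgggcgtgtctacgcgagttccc
Of these 3 windows, only that of PMEPA1 held a hexamer, TGTTCT, whose first base lay at -229 from the start. It overlapped a 15-base stretch from -238 to -224 that matched the full element (AGAACA, any 3 bases, TGTTCT) with 2 mismatches. A match that close or closer was found in 1.41% of the promoters of the members and in 1.41% of all promoters. The PMEPA1 window was picked for its hexamer, and the best matches in the other 3 PMEPA1 windows had 4, 5 and 6 mismatches. The best match in the HPGD window shown, the first listed, had 6 mismatches, and that in the other had 3. Among the members, 37 had an entry with 71 promoters in all, and 7 of these promoters (9.86%) held a hexamer, against 14.8% of the 35116 promoters of all genes in the table. The share was 12.5% of 40 promoters for members at least 2-fold higher with DHT in BicR and 6.45% of 31 promoters for the other members. A match describes letters in a window and is not a measured binding site. NNMT, the other member called with DHT over both lines, had no entry in the table.

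The 48 members spanned scarce and abundant transcripts. KRT8, a keratin of simple epithelium, had the highest length-scaled level of the members in every library, between 236 RPKM in BicR ethanol and 437 RPKM in LNCaP ethanol. The median level of the members was 15.4 RPKM in BicR DHT, above the 7.31 to 9.31 RPKM of the other 5 libraries. On the CPM scale, BicR DHT was the highest of the 6 libraries for 36 of the 48 members, against 21.3% of all genes tested. Both DHT libraries lay above all 4 androgen-free libraries for 22 of the 48, against 5.82% of all genes tested.

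**Figure D1:**
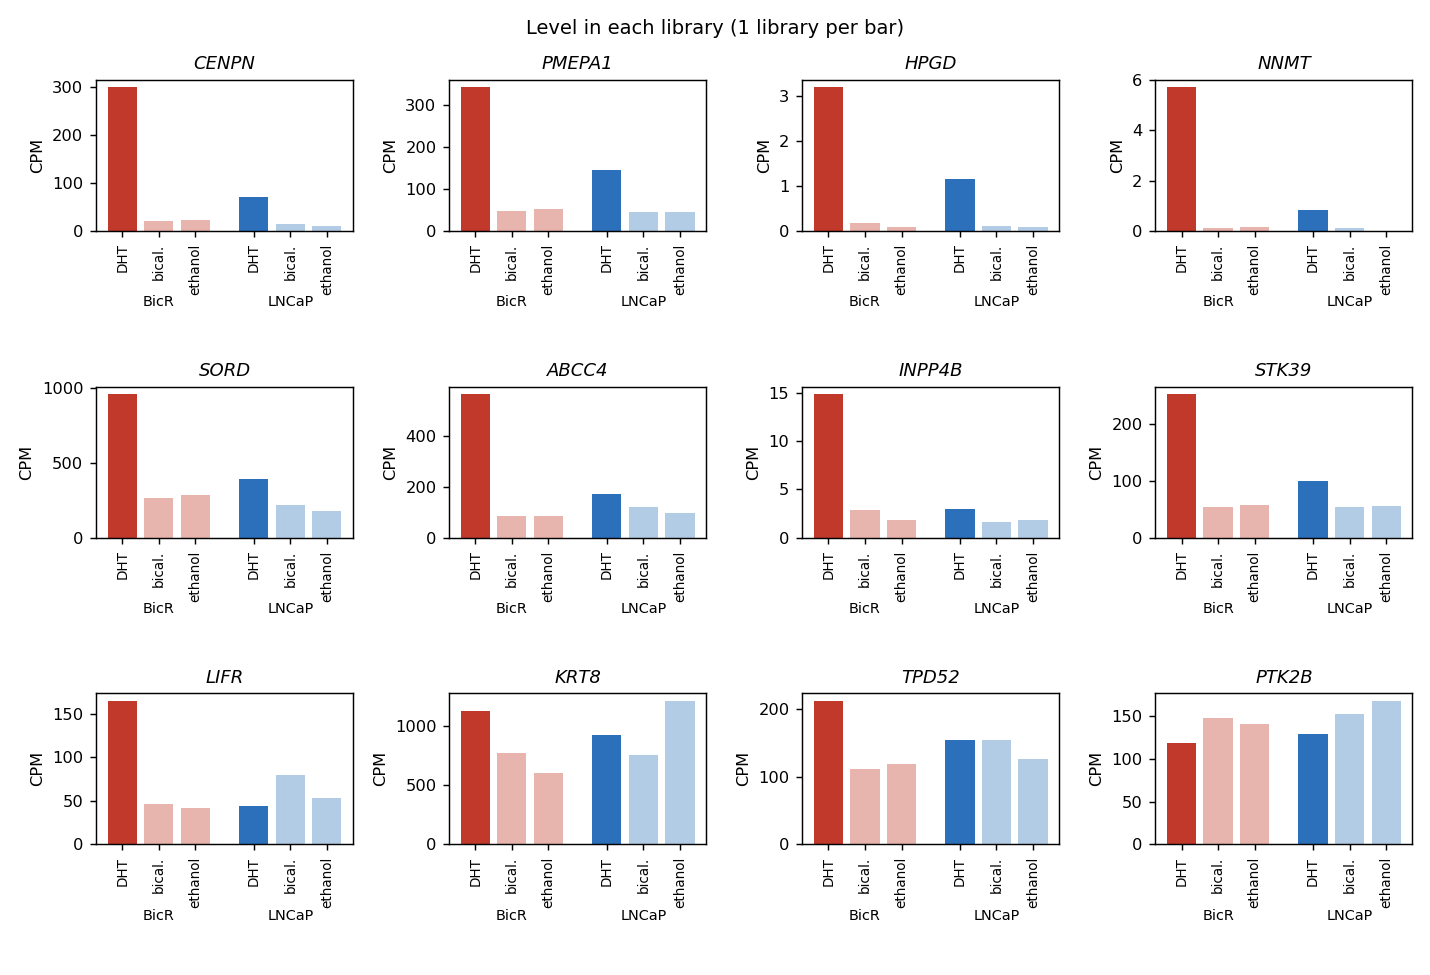
Levels of 12 members in CPM (counts scaled to library size, each panel on its own axis from 0), with 1 bar per library, BicR on the left of each panel and LNCaP on the right. The BicR DHT bar of CENPN reaches 300 CPM and the LNCaP DHT bar 69.7 CPM, both above the androgen-free bars, whereas the DHT bars of PTK2B are the lowest of each line.

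With DHT over both lines, 4 of the 48 members rose and 0 fell at an adjusted p of 0.05 (edgeR's quasi-likelihood test, 2-sided, Benjamini-Hochberg over all genes tested), where 0.158% of all genes tested rose and 0.0072% fell. These were CENPN, HPGD, NNMT and PMEPA1. The median log2 change was 0.76 over the members and 0.01 over all genes tested, and 45 of the 48 changes were above 0. At an unadjusted p below 0.05, 23 members were higher with DHT and 0 lower, against 2.74% and 2.89% of all genes tested. The model takes the disagreement between the lines as its error, so a response of unlike size in the lines weighs against a call. Nothing in the labels says that libraries stand for separate cultures, and the p-values reflect no more than the spread among these libraries. Without the LNCaP bicalutamide or the BicR bicalutamide library no member and 0% of all genes tested were called, with log2 changes of 3.24 for CENPN, 4.49 for HPGD, 5.51 for NNMT and 2.23 for PMEPA1 in those fits. By contrast 19 members were called without LNCaP ethanol (0.799% of all genes tested), 23 without LNCaP DHT (1.04%), 9 without BicR ethanol (1.2%) and 2, CENPN and PMEPA1, without BicR DHT (0.0864%).

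CENPN encodes a kinetochore protein that reads the centromeric histone variant. It stood at 300 CPM with DHT, 20.2 with bicalutamide and 22.7 with ethanol in BicR, and 69.7 with DHT, 14 with bicalutamide and 10.3 with ethanol in LNCaP. Both DHT libraries lay above every androgen-free library, and BicR DHT lay highest. The log2 change over both lines was 3.30 (SE 0.35, adjusted p = 0.0135, edgeR).

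PMEPA1 encodes a membrane adaptor that recruits ubiquitin ligases and dampens TGF-β signalling. Its level was 343 CPM with DHT, 48 with bicalutamide and 51.1 with ethanol in BicR, and 145 with DHT, 45.9 with bicalutamide and 44.5 with ethanol in LNCaP. The androgen-free libraries of both lines lay close together and both DHT libraries lay clear of them. Its log2 change over both lines was 2.27 (SE 0.30, adjusted p = 0.0307, edgeR).

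HPGD encodes the dehydrogenase that inactivates prostaglandins, and NNMT an N-methyltransferase that uses nicotinamide. Both were scarce without DHT. HPGD had 134 counts with DHT, 9 with bicalutamide and 5 with ethanol in BicR, and 63 with DHT, 6 with bicalutamide and 4 with ethanol in LNCaP. NNMT had 240 counts with DHT, 5 with bicalutamide and 8 with ethanol in BicR, and 46 with DHT, 5 with bicalutamide and 0 with ethanol in LNCaP. For both genes the DHT libraries stood above all androgen-free libraries, with BicR DHT highest. Over both lines the log2 change was 4.50 for HPGD (SE 0.54, adjusted p = 0.0229, edgeR) and 5.32 for NNMT (SE 0.76, adjusted p = 0.0423, edgeR), and the size of the change for NNMT depends on how the 0 count is treated.

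The DHT difference was also described within each line, where 1 library per treatment allows no test. A difference was counted when it reached 2-fold on the log2(CPM + 1) scale, where the changes of scarce genes come out smaller than on the CPM scale. In BicR, 25 of the 48 members were at least 2-fold higher with DHT than with ethanol and 0 were at least 2-fold lower, against 1.45% and 0.922% of all genes tested. In LNCaP, 5 members were at least 2-fold higher and 0 lower, against 1.4% and 1.19% of all genes tested. The 5 LNCaP genes, CENPN, HPGD, MAF, PMEPA1 and SORD, were all among the 25 of BicR, so the shared genes were 100% of the LNCaP list and 20% of the BicR list, against 20.6% and 19.8% for the lists of all genes tested. The median difference of the members was 1.10 in BicR and 0.27 in LNCaP on the log2 scale, against 0.00 and 0.01 for all genes tested. The difference was larger in BicR for 43 of the 48 members (89.6%), against 48.9% of all genes tested. With the bicalutamide library in place of ethanol, 25 members were at least 2-fold higher with DHT in BicR and 0 lower, against 1.43% and 1.04% of all genes tested. In LNCaP 3 were higher on that footing (CENPN, MAF and PMEPA1) and 0 lower, against 1.58% and 0.893%.

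**Figure D2:**
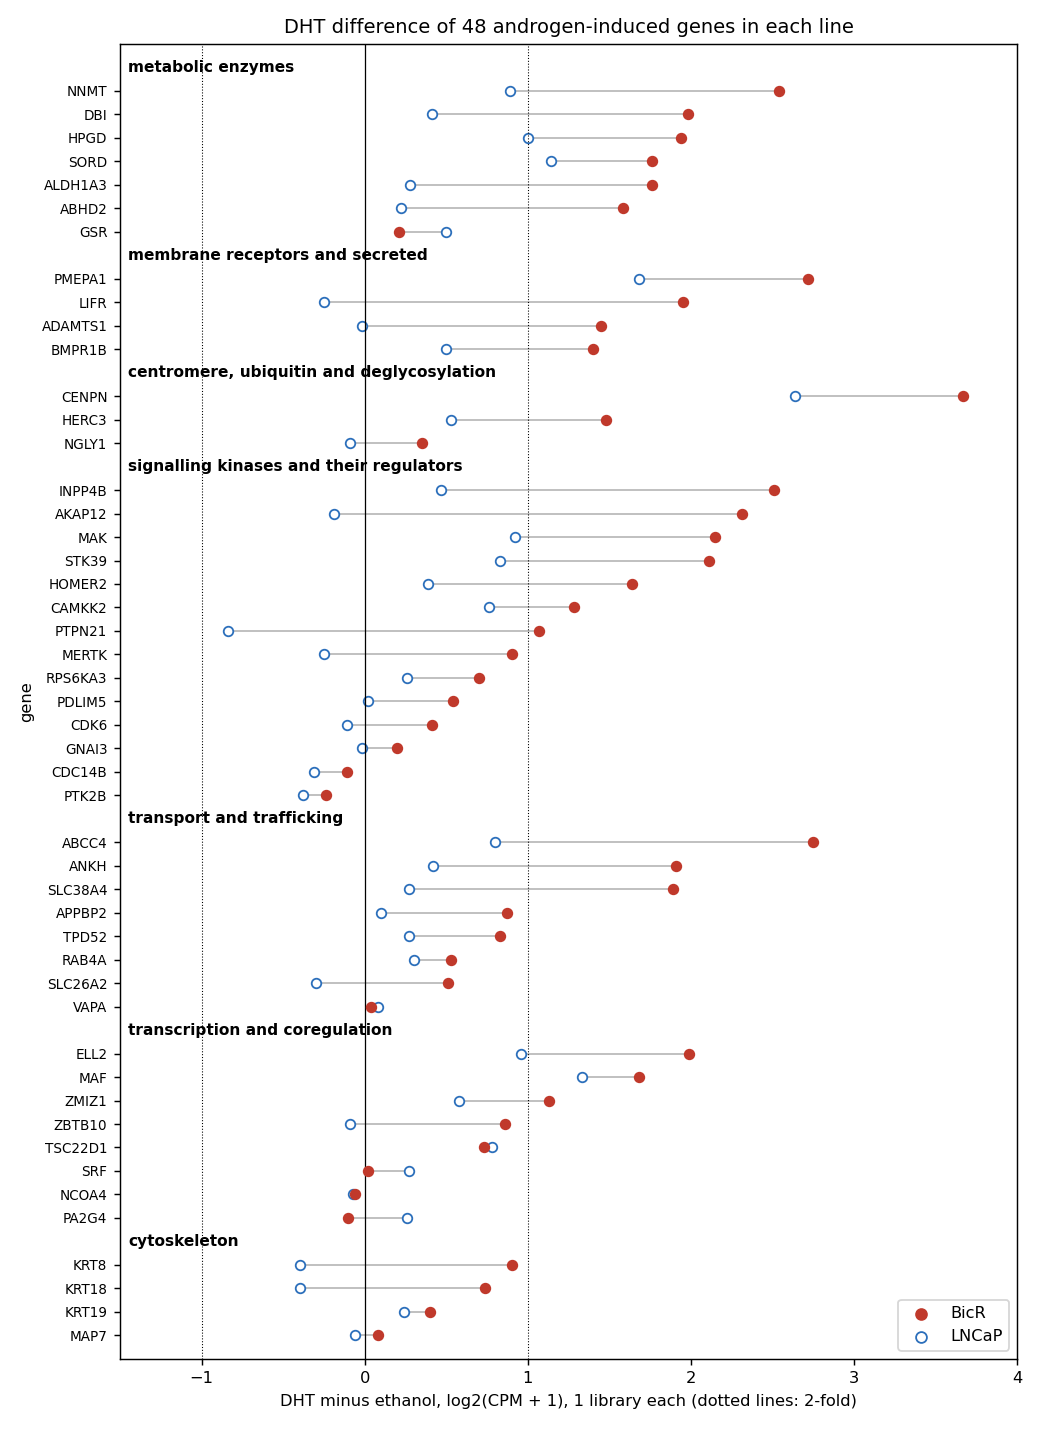
Difference of DHT minus ethanol on the log2(CPM + 1) scale (x axis) for each of the 48 genes (y axis, by role), filled points for BicR, open points for LNCaP, 1 library each, dotted lines at 2-fold. Filled points lie at or past the upper dotted line for 25 genes and open points for 5.

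**Figure D3:**
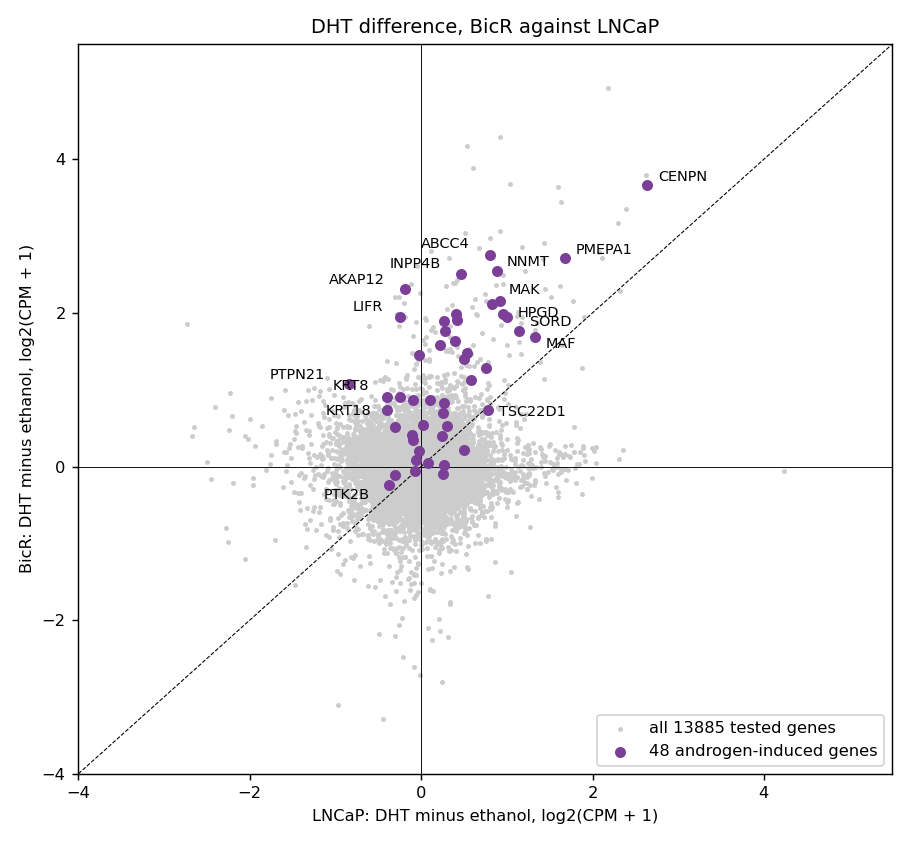
Difference of DHT minus ethanol on the log2(CPM + 1) scale in BicR (y axis) against LNCaP (x axis), with grey points for the 13885 genes tested, purple points for the 48 androgen-induced genes and a dashed line where both are equal. Of the purple points, 43 lie above the dashed line.

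Whether the DHT response differed between the lines was tested in a model that treats the ethanol and bicalutamide libraries of a line alike as androgen-free, so that any effect of bicalutamide enters its error. On that assumption 0 members were called in either direction with edgeR's quasi-likelihood test, where 0% of all genes tested were called. With the same assumption 46 of the 48 estimates lay on the side of a larger response in BicR, with a median log2 difference of 1.01 against 0.01 over all genes tested. At an unadjusted p below 0.05, 28 members had a larger response in BicR and 0 a smaller one, against 5.33% and 4.95% of all genes tested, again with bicalutamide taken as ethanol. DESeq2, on the same assumption, called 12 members as responding more in BicR. In that direction it called 0.789% of the 12808 genes to which it gave an adjusted p. The largest estimate was for AKAP12, 3.84 on the log2 scale (adjusted p = 0.353, edgeR, the androgen-free libraries taken alike), and that for ABCC4 was 2.10 (adjusted p = 0.258, edgeR, the same assumption).

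Among the 7 metabolic enzymes, 6 were at least 2-fold higher with DHT in BicR and 2 in LNCaP, with median log2 differences of 1.76 in BicR and 0.50 in LNCaP. For this and the role groups below, the share of all genes tested was 1.45% in BicR and 1.4% in LNCaP. Against bicalutamide the 2 LNCaP genes, HPGD at 0.95 and SORD at 0.83, fell short of 2-fold. SORD, the dehydrogenase that converts sorbitol to fructose, was at 964 CPM with DHT, 268 with bicalutamide and 285 with ethanol in BicR, and 390 with DHT, 219 with bicalutamide and 176 with ethanol in LNCaP. Both DHT libraries were above all others. ABHD2, a lipid hydrolase, was an abundant member at 3282 CPM with DHT, 1032 with bicalutamide and 1094 with ethanol in BicR, and 1464 with DHT, 1414 with bicalutamide and 1256 with ethanol in LNCaP. DBI, which carries acyl-CoA esters, was at 232 CPM with DHT, 51 with bicalutamide and 58.2 with ethanol in BicR, and 68.1 with DHT, 46.5 with bicalutamide and 51 with ethanol in LNCaP, and its counts are uncertain because 2 pseudogenes carry its name in the GENCODE annotation. For both genes BicR DHT lay highest, and LNCaP DHT was the highest of the LNCaP libraries. ALDH1A3, which makes retinoic acid from retinaldehyde, was at 108 CPM with DHT, 29.4 with bicalutamide and 31.4 with ethanol in BicR, and 70.1 with DHT, 52.1 with bicalutamide and 57.6 with ethanol in LNCaP. Its DHT library was the highest in either line. GSR, the enzyme that regenerates reduced glutathione, was the metabolic member that reached 2-fold in neither line, at 162 CPM with DHT, 125 with bicalutamide and 140 with ethanol in BicR, and 135 with DHT, 150 with bicalutamide and 95.6 with ethanol in LNCaP.

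Of the 4 receptors and secreted or membrane-anchored regulators, all 4 were at least 2-fold higher with DHT in BicR and 1, PMEPA1, in LNCaP, with medians of 1.70 in BicR and 0.24 in LNCaP. LIFR, the receptor for leukemia inhibitory factor, stood at 165 CPM with DHT, 46.2 with bicalutamide and 42 with ethanol in BicR, and 44.6 with DHT, 80.1 with bicalutamide and 53.5 with ethanol in LNCaP. In BicR the DHT library was highest, whereas in LNCaP it was the lowest of the 3. ADAMTS1, a secreted metalloprotease, was at 1208 CPM with DHT, 364 with bicalutamide and 441 with ethanol in BicR, and 473 with DHT, 360 with bicalutamide and 479 with ethanol in LNCaP, with BicR DHT above every other library. BMPR1B, a receptor for bone morphogenetic proteins, was scarce at 2.74 CPM with DHT, 0.305 with bicalutamide and 0.422 with ethanol in BicR, and 1.38 with DHT, 0.556 with bicalutamide and 0.68 with ethanol in LNCaP, and both DHT libraries stood above the androgen-free ones.

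The 14 signalling kinases, phosphatases and scaffolds split between responders in BicR and genes below 2-fold in both lines, with 7 at least 2-fold higher in BicR and 0 in LNCaP. Their medians were 0.99 in BicR and 0.00 in LNCaP. CAMKK2, the kinase that activates AMPK and the calmodulin kinases, was at 262 CPM with DHT, 108 with bicalutamide and 107 with ethanol in BicR, and 161 with DHT, 118 with bicalutamide and 94.6 with ethanol in LNCaP. STK39, which phosphorylates cation-chloride cotransporters, was at 253 CPM with DHT, 53.8 with bicalutamide and 57.7 with ethanol in BicR, and 98.9 with DHT, 54.5 with bicalutamide and 55.4 with ethanol in LNCaP. MAK, a kinase named for its expression in male germ cells, was at 11.1 CPM with DHT, 1.55 with bicalutamide and 1.73 with ethanol in BicR, and 3.11 with DHT, 1.25 with bicalutamide and 1.18 with ethanol in LNCaP. All 3 kinases had both DHT libraries above all androgen-free ones.

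INPP4B, a phosphatase that removes a phosphate from phosphoinositides and limits Akt signalling, was at 14.9 CPM with DHT, 2.91 with bicalutamide and 1.79 with ethanol in BicR, and 2.95 with DHT, 1.65 with bicalutamide and 1.84 with ethanol in LNCaP. AKAP12, a scaffold that anchors protein kinase A, was at 5.58 CPM with DHT, 0.59 with bicalutamide and 0.326 with ethanol in BicR, and 0.626 with DHT, 0.613 with bicalutamide and 0.86 with ethanol in LNCaP. HOMER2, a scaffold of glutamate receptor signalling, was at 110 CPM with DHT, 38.1 with bicalutamide and 34.4 with ethanol in BicR, and 49.1 with DHT, 39.2 with bicalutamide and 37.3 with ethanol in LNCaP. BicR DHT was the highest library for each, and for AKAP12 the LNCaP DHT library was below LNCaP ethanol. PTPN21, a tyrosine phosphatase with a FERM domain, was at 11 CPM with DHT, 5.05 with bicalutamide and 4.74 with ethanol in BicR, and 3.9 with DHT, 5.31 with bicalutamide and 7.8 with ethanol in LNCaP. Its BicR DHT level was the highest of the 6 and its LNCaP DHT level the lowest, and against BicR bicalutamide the BicR DHT level fell short of the 2-fold threshold on the log2(CPM + 1) scale.

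The other signalling members were below 2-fold in both lines. MERTK, a receptor kinase of apoptotic cell uptake, reached a log2 difference of 0.90 in BicR and -0.25 in LNCaP. PTK2B, a focal adhesion family kinase that responds to calcium, was at 119 CPM with DHT, 148 with bicalutamide and 141 with ethanol in BicR, and 129 with DHT, 152 with bicalutamide and 168 with ethanol in LNCaP, and the DHT library was the lowest in both lines. CDC14B, a dual-specificity phosphatase, was at 23.9 CPM with DHT, 26.9 with bicalutamide and 26 with ethanol in BicR, and 17.5 with DHT, 23.3 with bicalutamide and 21.9 with ethanol in LNCaP, also with the DHT library lowest in both lines. CDK6, the partner of D-type cyclins, differed by 0.41 in BicR and -0.11 in LNCaP. The ribosomal S6 kinase gene RPS6KA3 differed by 0.70 in BicR and 0.26 in LNCaP, the inhibitory G protein gene GNAI3 by 0.20 in BicR and -0.02 in LNCaP, and the scaffold gene PDLIM5 by 0.54 in BicR and 0.02 in LNCaP. Against bicalutamide the LNCaP difference was -0.27 for MERTK, -0.41 for CDK6, -0.04 for RPS6KA3, -0.29 for GNAI3 and -0.25 for PDLIM5.

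Of the 8 transport and trafficking genes, 3 were at least 2-fold higher with DHT in BicR and 0 in LNCaP, with medians of 0.85 in BicR and 0.27 in LNCaP. ABCC4, an exporter of organic anions and cyclic nucleotides, was at 565 CPM with DHT, 83.2 with bicalutamide and 83.3 with ethanol in BicR, and 173 with DHT, 120 with bicalutamide and 98.7 with ethanol in LNCaP. ANKH, a membrane protein that releases ATP and supplies pyrophosphate outside the cell, was at 375 CPM with DHT, 96.4 with bicalutamide and 98.9 with ethanol in BicR, and 120 with DHT, 73.3 with bicalutamide and 89 with ethanol in LNCaP. BicR DHT was the highest library for both, and in LNCaP the DHT library was also the highest of the 3. SLC38A4, an amino acid transporter, had 125 counts with DHT, 4 with bicalutamide and 4 with ethanol in BicR, and 14 with DHT, 3 with bicalutamide and 2 with ethanol in LNCaP. Both DHT libraries were highest, though the LNCaP counts were low enough that the ratio of DHT to ethanol had a 95% counting interval of 1.48 to 58.4.

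TPD52, which takes part in vesicle traffic and is often gained in prostate cancer, was at 213 CPM with DHT, 111 with bicalutamide and 119 with ethanol in BicR, and 154 with DHT, 154 with bicalutamide and 127 with ethanol in LNCaP. Its log2 change over both lines was 0.58 (SE 0.25, adjusted p = 0.868, edgeR). The sulfate transporter gene SLC26A2 differed by 0.51 in BicR and -0.30 in LNCaP, the endosomal GTPase gene RAB4A by 0.53 in BicR and 0.30 in LNCaP, the microtubule-binding APPBP2 by 0.87 in BicR and 0.10 in LNCaP, and the endoplasmic reticulum tether VAPA by 0.04 in BicR and 0.08 in LNCaP. These 4 stayed below 2-fold in both lines. With bicalutamide as the comparator the LNCaP difference was -0.47 for SLC26A2, 0.05 for RAB4A, -0.41 for APPBP2 and -0.17 for VAPA.

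Of the 8 transcription factors and coregulators, 3 were at least 2-fold higher in BicR and 1, MAF, in LNCaP, with medians of 0.80 in BicR and 0.42 in LNCaP. MAF, a bZIP factor, was at 3.31 CPM with DHT, 0.264 with bicalutamide and 0.346 with ethanol in BicR, and 4.07 with DHT, 1.17 with bicalutamide and 1.02 with ethanol in LNCaP. It was 1 of 4 members whose highest library was LNCaP DHT. ELL2, an elongation factor of RNA polymerase II, was at 159 CPM with DHT, 46.3 with bicalutamide and 39.2 with ethanol in BicR, and 69.5 with DHT, 44.3 with bicalutamide and 35.3 with ethanol in LNCaP. ZMIZ1, a transcriptional coactivator, was at 764 CPM with DHT, 344 with bicalutamide and 350 with ethanol in BicR, and 266 with DHT, 241 with bicalutamide and 178 with ethanol in LNCaP. For both genes the DHT library was highest within each line.

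TSC22D1, a leucine zipper gene first found through TGF-β, was at 367 CPM with DHT, 223 with bicalutamide and 221 with ethanol in BicR, and 317 with DHT, 230 with bicalutamide and 185 with ethanol in LNCaP, and its DHT library was the highest in each line but below 2-fold. NCOA4, a coactivator that also acts as the receptor sending ferritin to autophagy, was at 325 CPM with DHT, 319 with bicalutamide and 339 with ethanol in BicR, and 229 with DHT, 289 with bicalutamide and 240 with ethanol in LNCaP, with DHT and ethanol apart by less than 0.1 on the log2 scale in both lines. PA2G4, an ErbB3-binding protein that acts as a corepressor, was at 155 CPM with DHT, 175 with bicalutamide and 166 with ethanol in BicR, and 219 with DHT, 163 with bicalutamide and 183 with ethanol in LNCaP, with the BicR DHT library the lowest of all and the LNCaP DHT library the highest. The serum response factor SRF differed by 0.02 in BicR and 0.27 in LNCaP, and the zinc finger gene ZBTB10 by 0.86 in BicR and -0.09 in LNCaP.

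The 4 cytoskeletal genes held no 2-fold difference in either line, with medians against ethanol of 0.57 in BicR and -0.23 in LNCaP. Against bicalutamide the LNCaP difference was 0.28 for KRT8, 0.56 for KRT18, 0.55 for KRT19 and -0.30 for MAP7. The LNCaP differences of KRT8 and KRT18 thus changed sign with the comparator. KRT8 was at 1129 CPM with DHT, 770 with bicalutamide and 603 with ethanol in BicR, and 924 with DHT, 759 with bicalutamide and 1218 with ethanol in LNCaP. KRT18, its filament partner in luminal cells, was at 578 CPM with DHT, 340 with bicalutamide and 345 with ethanol in BicR, and 603 with DHT, 407 with bicalutamide and 796 with ethanol in LNCaP. Both keratins were highest in LNCaP ethanol, the library that stood apart in HSPA5, and in BicR both were higher with DHT than without it. KRT19 was scarce at 0.906 CPM with DHT, 0.366 with bicalutamide and 0.442 with ethanol in BicR, and 1.03 with DHT, 0.383 with bicalutamide and 0.72 with ethanol in LNCaP. The microtubule-associated MAP7 differed by 0.08 in BicR and -0.06 in LNCaP. Counts of the keratins are uncertain because 50 pseudogenes named for KRT8, 67 for KRT18 and 5 for KRT19 are annotated, and 5 carry the name of PA2G4.

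The last group of 3 holds CENPN, HERC3 and NGLY1, of which 2 were at least 2-fold higher in BicR and 1 in LNCaP. HERC3, a ubiquitin ligase, was at 82.8 CPM with DHT, 22.9 with bicalutamide and 29.1 with ethanol in BicR, and 34.5 with DHT, 23.5 with bicalutamide and 23.6 with ethanol in LNCaP. Its DHT library was the highest in each line. NGLY1, which strips N-glycans from misfolded proteins, differed by 0.35 in BicR and -0.09 in LNCaP.

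Exact intervals on the ratio of counts cover counting error only. In BicR the DHT library held 13.2 times the ethanol level (95% interval 12.4 to 14) for CENPN, 6.71 times the ethanol level (95% interval 6.44 to 7) for PMEPA1 and 6.79 times the ethanol level (95% interval 6.57 to 7.01) for ABCC4. In LNCaP it held 6.74 times the ethanol level (95% interval 6.15 to 7.4) for CENPN and 3.26 times the ethanol level (95% interval 3.11 to 3.42) for PMEPA1. The ratio for NNMT in LNCaP was 14.1 with the 0 in ethanol counted as the floor of 3 counts per library. The 95% interval on the counts themselves began at 11 and had no upper end. For HPGD in LNCaP the ratio was 14.5 (95% interval 5.39 to 54.9), while its difference on the log2(CPM + 1) scale was 1.00, and 2.81 with a pseudocount of 0.1 CPM.

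With bicalutamide over both lines, 0 members were called in either direction by edgeR's quasi-likelihood test, and 0% of all genes tested were. At an unadjusted p below 0.05 there were 0 members higher and 0 lower, against 0.375% and 0.641% of all genes tested, and DESeq2 called 0 members. The median log2 change of the members was 0.08 against 0.01 over all genes. Within BicR, 0 of the 48 were at least 2-fold higher or lower with bicalutamide than with ethanol, where 0% of all genes tested were either way, and the differences ran from -0.34 for HERC3 to 0.49 for INPP4B. Within LNCaP, 0 of the 48 were at least 2-fold higher or lower, against 1.08% and 1.52% of all genes tested, and the differences ran from -0.97 for KRT18 to 0.65 for GSR.

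**Figure D4:**
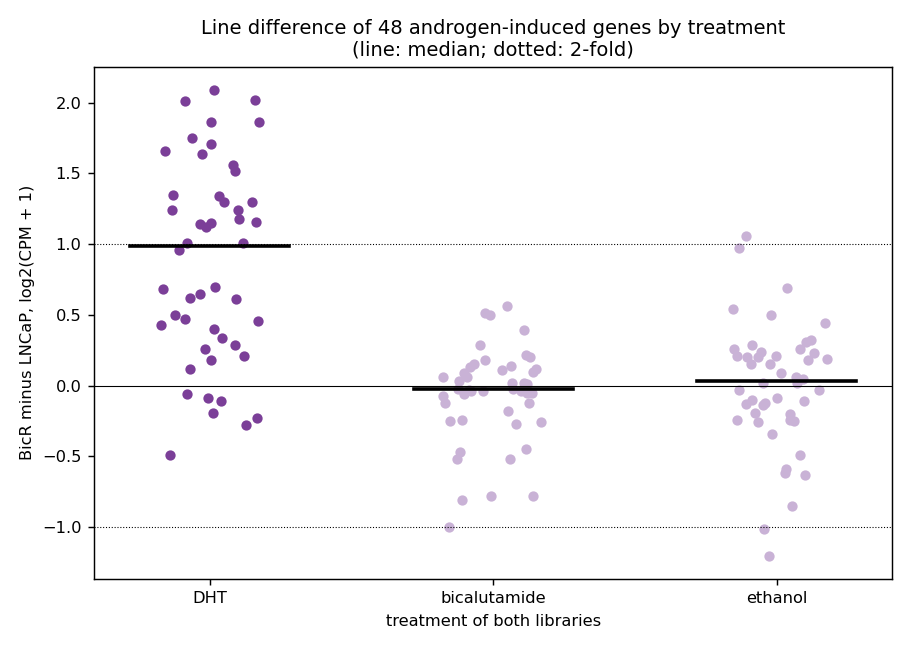
Difference of BicR minus LNCaP on the log2(CPM + 1) scale (y axis) for the 48 genes under each treatment (x axis), 1 point per gene, with a black bar at the median and dotted lines at 2-fold. The median is 0.98 with DHT, -0.03 with bicalutamide and 0.04 with ethanol.

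Between the lines, most members that differed 2-fold did so with DHT. With DHT, 24 of the 48 members were at least 2-fold higher in BicR than in LNCaP and 0 were lower, against 2.81% and 4.7% of all genes tested. With bicalutamide, 0 were higher and 1, RPS6KA3 with 26.4 CPM in BicR against 53.9 CPM in LNCaP, was lower, against 0.684% and 1.27%. With ethanol, 1 was higher, CENPN at 1.06, and 2 were lower, KRT8 at -1.01 and KRT18 at -1.20, against 2.62% and 3.88%. The median differences of the members were 0.98 with DHT, -0.03 with bicalutamide and 0.04 with ethanol.

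Over the 3 treatments together, CENPN and ZMIZ1 were the 2 members called higher in BicR than in LNCaP, and 0 were called lower, where 1.58% of all genes tested were higher and 2.84% lower. The log2 change was 1.26 for CENPN (SE 0.27, adjusted p = 0.0397, edgeR) and 1.00 for ZMIZ1 (SE 0.22, adjusted p = 0.042, edgeR). The BicR level of ZMIZ1 was above the LNCaP level in every treatment, also without DHT, at 350 CPM in BicR against 178 CPM in LNCaP with ethanol, and at 344 CPM in BicR against 241 CPM in LNCaP with bicalutamide. The DHT libraries take part in this comparison, and with the BicR DHT library left out 0 members were called higher and 3 lower (1.59% and 2.13% of all genes tested). Leaving out the LNCaP DHT library gave the same counts, 0 higher and 3 lower (1.42% and 1.9%), and leaving out LNCaP ethanol or BicR ethanol gave 8 higher (1.62% and 1.61%). Without the BicR bicalutamide or the LNCaP bicalutamide library 0 members and 0% of all genes tested were called higher or lower, with log2 changes of 1.63 for CENPN and 1.25 for ZMIZ1 in those fits.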

How the data were processed

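The 6 RNA sequencing libraries were made from total RNA isolated with ISOGEN and sequenced with the SOLiD 3 Plus system, according to the labels' protocols. The authors deposited 1 table that lists, by gene symbol, a raw count in each library and an RPKM value scaled by the authors to gene length and depth, per the file headers. Per the submitters' processing notes, hg19 was the genome build. The aligner, counter, gene models and use of strand were not given in the sources used here. The series' design text speaks of short RNAs and miRNAs, whereas the table lists gene symbols, so what the libraries were selected for is taken from the table and the labels. Of the 21512 genes, 2988 were at 0 in every library.

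From the deposited counts, CPM was computed with TMM-scaled library sizes in edgeR 4.0.16 (R 4.3.3). The 13885 genes that averaged 20 or more counts entered edgeR's quasi-likelihood test (2-sided), with p-values adjusted after Benjamini-Hochberg over all of them and a threshold of 0.05. An additive model of line and treatment (2 residual and 6.8 prior degrees of freedom) gave the DHT, bicalutamide and line effects. A model of line by DHT, with ethanol and bicalutamide pooled (2 residual and 3.49 prior degrees of freedom), gave the difference in DHT response. Standard errors are the absolute log2 change divided by the square root of F. The fits were also run on simulated counts with the same spread setting for all genes, which is simpler than these data. That run does not show how reliable the calls are.

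Within a line, differences of log2(CPM + 1) were counted at 2-fold. Count ratios have exact conditional 95% intervals, and a count of 0 was set to 3 counts per library. Intervals and floors cover counting error only. The deposited RPKM served for levels between genes and, in limma 3.58.1, as an alternative scale. Other alternatives were median-ratio size factors, DESeq2 1.42.0, no filter on low counts, pseudocounts of 0.1 and 5 CPM, library totals, bicalutamide or the mean of ethanol and bicalutamide as comparator, only the ethanol and DHT libraries, and each library left out in turn.

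The members and lists were chosen with earlier results of these data known. Values in every library are given for each member called with DHT, with bicalutamide or in the difference of response, for the 8 highest and the 4 lowest DHT differences in each line, for the 5 highest and 5 lowest line changes among those called, and for KRT8, KRT18, KRT19 and TPD52. Others appear where their role group needs them.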

Additional observations from a re-analysis of the deposited data

Results flagged for a closer look

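For 8 members the DHT library lay above ethanol in 1 line and below it in the other, with counting intervals of the ratio clear of 1 in both lines. This is 16.7% of the 48 members, against 23.1% of all genes tested, so opposite directions were no more frequent among the members. At these depths small differences clear their counting intervals. All values are DHT minus ethanol on the log2(CPM + 1) scale.

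PTPN21, a tyrosine phosphatase, differed by 1.07 in BicR and -0.84 in LNCaP. LIFR, a cytokine receptor, differed by 1.95 in BicR and -0.25 in LNCaP. The keratin KRT8 differed by 0.90 in BicR and -0.40 in LNCaP, and its partner KRT18 by 0.74 in BicR and -0.40 in LNCaP. The receptor kinase MERTK differed by 0.90 in BicR and -0.25 in LNCaP, the sulfate transporter SLC26A2 by 0.51 in BicR and -0.30 in LNCaP, and the zinc finger gene ZBTB10 by 0.86 in BicR and -0.09 in LNCaP. PA2G4 alone ran the other way, with -0.10 in BicR and 0.26 in LNCaP.

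With the bicalutamide library in place of ethanol, the LNCaP difference was 0.28 for KRT8 and 0.56 for KRT18, on the same side as in BicR. It stayed below 0 for LIFR at -0.83, MERTK at -0.27, PTPN21 at -0.36, SLC26A2 at -0.47 and ZBTB10 at -0.14, and above 0 for PA2G4 at 0.43.

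In the model that takes bicalutamide as ethanol, edgeR's quasi-likelihood test called the difference between the lines for 0 of the 8. On that assumption the adjusted p was 0.329 for LIFR (unadjusted 0.000885), 0.353 for MERTK, 0.366 for PTPN21, 0.366 for ZBTB10, 0.4 for SLC26A2, 0.545 for PA2G4, 0.595 for KRT8 and 0.671 for KRT18.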

How the results depend on the processing

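With 1 library per line and treatment, the calls rest on few degrees of freedom, and no called member changed sign under the alternatives run. With bicalutamide as comparator, the DHT difference within LNCaP changed sign for 10 of the 48 members (34.2% of all genes tested did). Among them were KRT8, KRT18, GSR and APPBP2. Within BicR it changed sign for 3 of the 48 (17%). All members that changed sign were below 2-fold. The labels carry no replicate numbers, so cultures could not be paired. The additive model did compare the treatments within each line, through its term for line. The 4 members that rose with DHT became 14 with DESeq2 (0.54% of all genes tested), 11 with no filter (0.356%), 2 with limma on RPKM (0.108%), 8 against the mean of ethanol and bicalutamide (0.324%), 0 with only the ethanol and DHT libraries, and 0 to 23 with 1 library left out. The 2 members higher in BicR became 5 with DESeq2 (4.01% of all genes tested), 5 with no filter (2.72%), 1 with limma (1.89%) and 0 to 8 with 1 library left out. The count lower in BicR, 0, became 1 with DESeq2 (6.72%) and 0 to 3 with 1 library left out. With bicalutamide taken as ethanol, the count with a larger DHT response in BicR, 0, became 12 with DESeq2 and 0 to 38 with 1 library left out, and the count with a smaller one 0 to 2. The 38 came without LNCaP ethanol and 32 without LNCaP bicalutamide, where 22.5% and 16.6% of all genes tested were called and the error comes from the BicR ethanol and bicalutamide libraries alone. Within LNCaP, the 5 members at least 2-fold higher with DHT became 8 at a pseudocount of 0.1 CPM, 3 at 5 CPM and 3 on RPKM. The shares of all genes tested under those settings are not given here, so these counts have no comparison. Against bicalutamide there were 3 (1.58% of all genes tested). Counts within BicR stayed within 1.5 times under the alternatives run. The cause of these changes was not tested otherwise.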

Other observations

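Of 46 other genes known as androgen-induced, among them the kallikreins and the lipid and steroid genes, 45 were tested (ORM1 fell below the filter). With DHT over both lines 12 of the 45 rose and 0 fell in edgeR's quasi-likelihood test, against 0.158% and 0.0072% of all genes tested. The median log2 change was 1.02, against 0.01 over all genes tested. TMPRSS2, a membrane protease, stood at 1032 CPM with DHT, 95.1 with bicalutamide and 114 with ethanol in BicR, and at 494 with DHT, 92.9 with bicalutamide and 99.7 with ethanol in LNCaP. FKBP5, a cochaperone of steroid receptors, stood at 712 CPM with DHT, 54.2 with bicalutamide and 56.5 with ethanol in BicR, and at 132 with DHT, 56.6 with bicalutamide and 43 with ethanol in LNCaP. TMPRSS2 was among the 12 called (adjusted p = 0.0135, edgeR), whereas FKBP5 was not (adjusted p = 0.15, edgeR).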
